A study of Mus musculus with 8 samples.

Results

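Lyz2 and Lyz1, the 2 lysozyme genes examined here, were found by gene name among the 15377 genes listed in the tables of read counts for bone marrow-derived macrophages (BMDM) and bone marrow-derived dendritic cells (BMDC). Knockout (KO) cultures came from Lyz2-Cre;Trpv2fl/fl mice and control cultures from Trpv2fl/fl mice, so both genotypes carried loxP-flanked Trpv2 on the C57BL/6 strain and only the KO carried Cre recombinase. Bone marrow was grown to day 7 with M-CSF at 10 ng/mL for BMDM or with GM-CSF at 20 ng/mL for BMDC. BMDM KO, BMDM control, BMDC KO and BMDC control each had 2 libraries, made from total RNA with an mRNA kit, from 2 mice per group as the series counts them. The sources used here do not say whether a mouse gave cultures of both cell types, and p-values measure the spread between these samples.

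Lysozyme is a secreted enzyme that cuts the peptidoglycan of bacterial cell walls, and macrophages also hold it in phagosomes and lysosomes. Mice have duplicated the gene: Lyz2 encodes lysozyme M, the form of macrophages, monocytes and granulocytes, and Lyz1 encodes lysozyme P, the form of Paneth cells in the small intestine. In the Lyz2-Cre line in common use, Cre was placed at the start codon of Lyz2, so the allele drives Cre in myeloid cells and disrupts lysozyme M. The labels do not say which Lyz2-Cre line was used, nor whether the mice carried it on a single copy or on both copies of Lyz2. Cre at Lyz2 and loss of Trpv2 occurred together in each KO library, so their effects cannot be told apart.

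Both genes lie on the minus strand of chromosome 10, Lyz2 (ENSMUSG00000069516) from 117113236 to 117118226 and Lyz1 (ENSMUSG00000069515) from 117123702 to 117128773 as deposited. These positions differ from those of the GRCm38 annotation, and their build could not be settled. In GENCODE M21, on GRCm38, each gene has 4 exons and a single transcript, of 1316 bases for Lyz2 and 1263 bases for Lyz1, the same lengths that the deposited tables list. Each codes for 148 amino acids. The coding sequences differ at 22 of 444 bases, in 18 codons, and the whole transcripts were 96.0% identical over aligned bases. The first 90 coding bases of each, printed to show how reads of the 2 genes can be told apart, carry the differing bases in capitals:
Lyz2 coding bases 1 to 90: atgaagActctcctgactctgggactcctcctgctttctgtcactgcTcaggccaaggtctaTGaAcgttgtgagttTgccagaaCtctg
Lyz1 coding bases 1 to 90: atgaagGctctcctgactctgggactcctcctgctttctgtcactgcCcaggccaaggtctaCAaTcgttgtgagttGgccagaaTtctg
These stretches differ at 7 bases. The longest run with no difference was 118 bases. A window of 50 bases from the Lyz1 transcript had an exact copy in the Lyz2 transcript in 16.1% of positions, one of 100 bases in 2.06%, and one of 150 bases in 0 of 1114 positions. The sources used here do not say how reads that match both genes were counted, so the smaller Lyz1 counts are uncertain by an unknown number of reads from Lyz2.

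The promoter windows, from 250 bases before to 50 after the start, are printed because the genes share most of their coding sequence but differed widely in level. They are RefSeq's, on the minus strand of GRCm38.p6, at chr10:117282223-117282522 for Lyz2 and chr10:117292819-117293118 for Lyz1. Distances are from the RefSeq start, which lies 30 bases before the start codon in both genes. GENCODE M21 has 79 bases before it in Lyz2 and 30 in Lyz1, so the Lyz2 distances depend on the start chosen. Capitals mark AGGAAG, a core of sites for ETS factors such as PU.1, and ACCACA, a core of RUNX sites, on either strand:
Lyz2 promoter: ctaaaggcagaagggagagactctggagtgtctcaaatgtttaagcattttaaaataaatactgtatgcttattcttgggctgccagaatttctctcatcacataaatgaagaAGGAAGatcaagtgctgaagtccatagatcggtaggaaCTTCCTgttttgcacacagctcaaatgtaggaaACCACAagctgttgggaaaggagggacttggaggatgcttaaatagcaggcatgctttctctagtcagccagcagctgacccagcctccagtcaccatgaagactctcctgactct
Lyz1 promoter: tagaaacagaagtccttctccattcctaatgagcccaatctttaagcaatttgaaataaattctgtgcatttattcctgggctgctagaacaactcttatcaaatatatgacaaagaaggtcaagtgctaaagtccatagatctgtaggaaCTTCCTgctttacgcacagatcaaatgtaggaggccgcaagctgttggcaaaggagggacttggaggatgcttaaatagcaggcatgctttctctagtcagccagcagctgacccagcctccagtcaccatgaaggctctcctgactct
Position by position, 201 of 300 bases were identical, and the longest identical run, 86 bases, covered the start. AGGAAG or its complement occurred in the Lyz2 window 137 and 99 bases before the start and in the Lyz1 window 99 bases before it. Of 32851 promoter windows, 35.4% hold this motif. ACCACA occurred in the Lyz2 window, 66 bases before the start, and not in that of Lyz1, and 16.8% of windows hold it. TTGCNNAA, a core of C/EBP sites, occurred in the Lyz1 window, 209 bases before the start on the other strand, and not in that of Lyz2, and 10.8% of windows hold it. TATAAA was in neither window. The motifs were chosen with these sequences in view, do not overlap each other in the windows, and are matches of letters only.

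The 8 libraries held 15790185 to 19463457 counts. Trpv2, the floxed calcium-permeable channel gene, was at 25.6 and 28.6 CPM (counts scaled to the library size after TMM normalisation) in BMDM KO, against 268 and 269 CPM in BMDM control, and at 37.0 and 57.0 CPM in BMDC KO, against 187 and 244 CPM in BMDC control, as the labels state. The 12 macrophage markers summed to 13287 to 15044 CPM in BMDM and 5834 to 12250 CPM in BMDC. The 12 dendritic cell markers listed in both tables, of 14, summed to 330 to 387 CPM in BMDM and 409 to 1426 CPM in BMDC. Among the dendritic markers, Itgax was at 33.9 to 56.8 CPM in BMDM and 62.4 to 201 CPM in BMDC, the MHC class II gene H2-Ab1 at 42.6 to 53.5 CPM in BMDM and 78.5 to 228 CPM in BMDC, and the classical dendritic cell factor Zbtb46 at 0.0616 to 0.828 CPM in BMDM and 0.348 to 0.853 CPM in BMDC. Not all dendritic markers were lower in BMDM. For BMDM control over BMDC control their median log2 fold change was −0.65, from −5.69 for Irf4 to 1.97 for Batf3. By edgeR 2 of the 12 were lower and 0 were higher at an adjusted p under 0.05. BMDC KO 2 stood apart. Its Spearman correlations with the other BMDC libraries over genes were 0.933 to 0.940, against 0.983 to 0.987 among the others and 0.987 to 0.992 in BMDM. It had the highest BMDC sums of macrophage markers (12250 CPM, against 5834 to 7470 in the other BMDC libraries), dendritic markers (1426 CPM, against 409 to 674), neutrophil markers (370 CPM, against 197 to 315) and B cell markers (29.9 CPM, against 1.19 to 3.65), and the lowest of mast cell and basophil markers (48.7 CPM, against 94.6 to 172). The part of these markers in the BMDC results was not tested. In libraries of whole cultures, fewer cells that express a gene and less RNA of it per cell cannot be told apart.

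In BMDM, Lyz2 was the most abundant transcript of the control cultures and fell in KO to 0.435% of that level. It had 3932 and 4682 counts in BMDM KO, against 922076 and 848044 counts in BMDM control. Per gene length, that was 189 and 207 FPKM (fragments scaled by gene length and library total, the authors' deposited values) in BMDM KO, against 43888 and 40620 FPKM in BMDM control. Both KO libraries lay far below both controls. Lyz2 ranked 667 and 595 by count in the KO libraries and ranked 1 in each control, where the iron storage gene Fth1 came next. In the KO libraries Fth1 ranked 1.

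The log2 fold change of Lyz2 in BMDM was −7.85 (SE 0.23, 95% interval −8.32 to −7.37, adjusted p = 4.1e-22), a level 230-fold lower, by the quasi-likelihood test of edgeR, adjusted over 11024 genes (Benjamini-Hochberg). This was the lowest fold change and the smallest p of all genes tested. The authors' deposited table gives −7.84 on the log2 scale, with an adjusted p of 2.45e-152.

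Lyz1, the Paneth cell form, was far less abundant in BMDM and fell by a smaller factor. It had 125 and 106 counts in BMDM KO, against 855 and 859 counts in BMDM control. As deposited, that was 6.27 and 4.89 FPKM in BMDM KO, against 42.4 and 42.9 FPKM in BMDM control, and the groups did not overlap. By edgeR it was 8.26-fold lower, at log2 −3.05 (SE 0.20, 95% interval −3.46 to −2.64, adjusted p = 2.1e-12). Lyz1 lost its call in the joint fit of all 8 libraries (log2 −3.04, adjusted p = 0.074; 2.9e-67 to 0.074 over the 14 alternatives). The common biological coefficient of variation was 0.306 in the joint fit and 0.134 in the BMDM fit. Of all genes tested in BMDM, 0.109% passed, 0.0635% passed with a lower level in KO, and 13.6% had both KO libraries below both controls, as both lysozyme genes did.

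**Figure D1:**
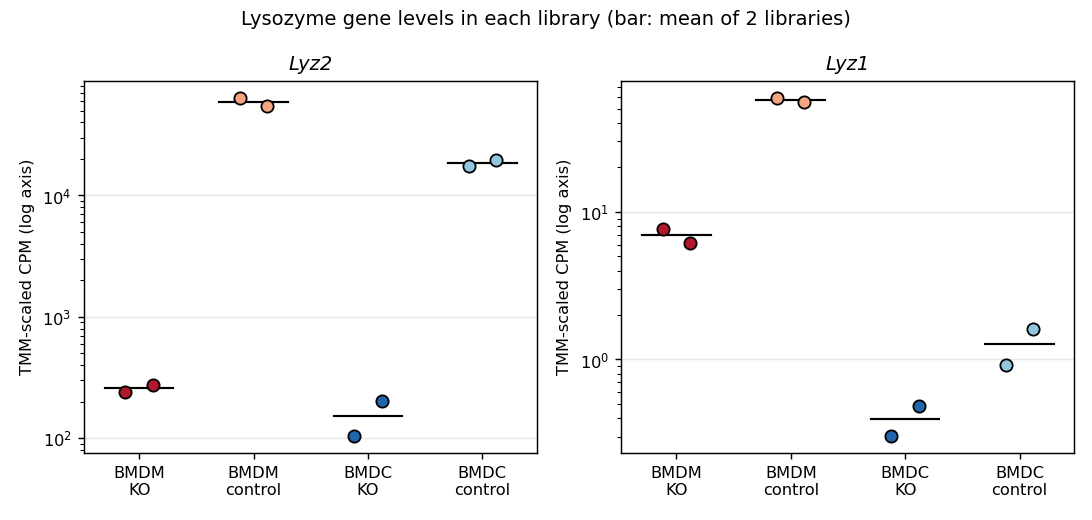
TMM-scaled CPM of Lyz2 (left) and Lyz1 (right) on log axes, scaled over all 8 libraries. Each point is a library and each bar the mean of 2, with KO left of control in BMDM and then in BMDC. Lyz2 lies at 242 and 274 CPM in BMDM KO and at 63603 and 54968 CPM in BMDM control, and each KO group lies below its control for both genes.

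In BMDC, Lyz2 was again among the most abundant transcripts in the control cultures and low in KO. It had 2056 and 2902 counts in BMDC KO, against 322346 and 405796 counts in BMDC control. As deposited, that was 91.6 and 125 FPKM in BMDC KO, against 14521 and 15843 FPKM in BMDC control. Both KO libraries lay below both controls, as in 12.6% of tested BMDC genes. Lyz2 ranked 1755 and 994 by count in the KO libraries and ranked 3 in each control, behind Fth1 and the lysosomal saposin precursor gene Psap. By FPKM it ranked 1 in each control.

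The log2 fold change of Lyz2 in BMDC was −6.93 (SE 0.68, 95% interval −8.59 to −5.27), 122-fold lower, and was the lowest of the 11357 genes tested. It had the smallest p of all genes (4.7e-05) but did not pass after adjustment (adjusted p = 0.54 by edgeR). No BMDC gene passed, which is 0% of those tested, with 128 (1.13%) at an unadjusted p under 0.05 and 6 (0.0528%) past the threshold by DESeq2. Lyz2 passed in BMDC by DESeq2 (adjusted p = 2.2e-40), in the joint fit (adjusted p = 0.012) and in the edgeR fit with a replicate block (adjusted p = 1.2e-16), and the authors' deposited table gives 5.16e-19. It also passed without a low-count filter (adjusted p = 3.1e-04, edgeR). Leaving out a library left 1 in its group. The log2 value was then −7.02 without BMDC control 1 and −6.85 without BMDC control 2. It was −6.55 without BMDC KO 1 and −7.47 without BMDC KO 2. Lyz2 did not pass in 6 of 13 alternatives. They were the fit without BMDC KO 2, DESeq2 size factors in edgeR (adjusted p = 0.67), totals without the lysozymes (0.086), limma-voom (0.14), and limma on log2(FPKM + 1) (0.12) or log2(FPKM + 0.1) (0.072).

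Lyz1 was near the limit of detection in BMDC. It had 6 and 7 counts in BMDC KO, against 17 and 33 counts in BMDC control. Both KO counts were below both controls, as in 12.6% of tested genes. By edgeR the difference was −1.68 on the log2 scale (SE 0.81, adjusted p = 0.97), with a 95% interval from −3.66 to 0.30, so a fall as large as that in BMDM and no fall lay within it. Summed over libraries and relative to library totals, 13 counts in KO against 50 in control gave 27.3% (95% interval 13.6% to 50.9%, exact, counting error only). Lyz1 met the low-count filter in BMDC only through its control libraries.

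**Figure D2:**
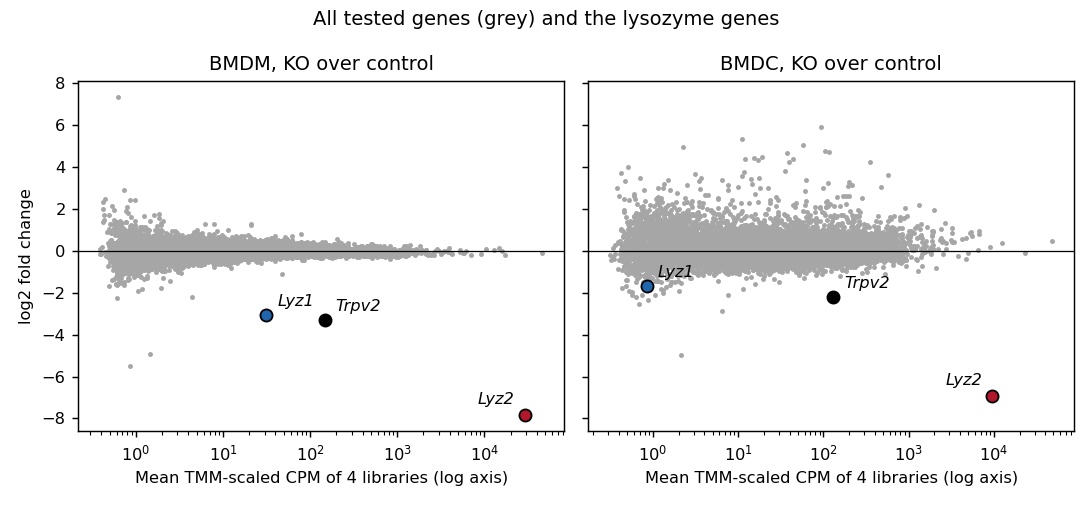
Log2 fold change, KO over control, against mean TMM-scaled CPM on a log axis, for BMDM (left) and BMDC (right). Each grey point is a tested gene and the black point is Trpv2. Lyz2 is the lowest point in each panel, at −7.85 in BMDM and −6.93 in BMDC, while Lyz1 stands at −3.05 in BMDM and at −1.68 among other low-count genes in BMDC.

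The level that remained in KO was lowest for Lyz2. Lyz2 stood at 0.406% and 0.464% of the control mean in the BMDM KO libraries and at 0.564% and 1.08% in the BMDC KO libraries, in TMM-scaled CPM. Trpv2 stood at 9.54% and 10.7% in BMDM KO and at 17.1% and 26.5% in BMDC KO. Lyz1 stood at 13.3% and 10.9% in BMDM KO and at 24.3% and 38.3% in BMDC KO. In each KO library Lyz2 was the lowest of these. The difference between the KO effects (BMDM minus BMDC, edgeR, joint fit) did not pass for any of them. For Lyz2 it was −0.92 on the log2 scale (SE 0.54, 95% interval −2.17 to 0.34, adjusted p = 0.84), for Lyz1 −1.34 (SE 0.55, −2.61 to −0.07, adjusted p = 0.84) and for Trpv2 −1.11 (SE 0.39, −2.03 to −0.19, adjusted p = 0.84). By that test 0 of 11671 genes (0%) passed, 225 (1.93%) had an unadjusted p under 0.05, and 0 passed by DESeq2. Lyz2 was at log2 −1.31 without BMDC KO 1, a fit in which BMDC KO 2 alone stands for its group. It was at −0.35 without BMDC KO 2.

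**Figure D3:**
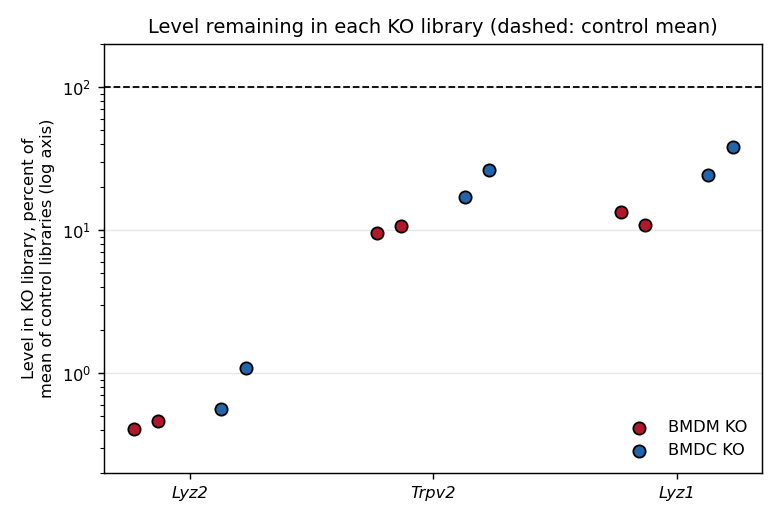
Level of Lyz2, Trpv2 and Lyz1 in each KO library as a percent of the mean of the control libraries of the same cell type, in TMM-scaled CPM on a log axis; the dashed line marks the control mean. Lyz2 lies at 0.406% to 1.08%, below Trpv2 at 9.54% to 26.5% and Lyz1 at 10.9% to 38.3%.

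The control cultures of the cell types differed more in Lyz1 than in Lyz2. Scaled over all 8 libraries, Lyz1 was at 59.0 and 55.7 CPM in BMDM control, against 0.920 and 1.61 CPM in BMDC control. It was 44.9-fold higher in BMDM control, at log2 5.49 (SE 0.37, 95% interval 4.62 to 6.35, adjusted p = 6.9e-04, edgeR). Of 11671 genes tested, 9.75% passed, 4.67% with a higher level in BMDM, and in 36.3% both BMDM control libraries lay above both BMDC control libraries. Lyz1 ranked 33 among all genes by this fold change, which rests on 17 and 33 Lyz1 counts in BMDC control that could all be reads from Lyz2. Lyz2 was at 63603 and 54968 CPM in BMDM control, against 17453 and 19759 CPM in BMDC control, 3.19-fold higher at log2 1.67 (SE 0.39, 95% interval 0.76 to 2.58, adjusted p = 0.040, edgeR). Lyz2 did not pass by limma-voom (adjusted p = 0.077), with a replicate block (0.055), or without any single BMDM control, BMDC control or BMDM KO library (0.10 to 0.21).

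The KO cultures kept a cell type difference in Lyz1. It was at 7.69 and 6.19 CPM in BMDM KO, against 0.301 and 0.488 CPM in BMDC KO. It was 17.7-fold higher in BMDM KO, at log2 4.15 (SE 0.40, adjusted p = 0.0016, edgeR), where 8.02% of genes passed, 3.38% with a higher level in BMDM, and 22.1% had both BMDM KO libraries above both BMDC KO libraries. Lyz2 was at 242 and 274 CPM in BMDM KO, against 103 and 202 CPM in BMDC KO. The difference of 0.76 on the log2 scale (SE 0.38, 95% interval −0.14 to 1.65, adjusted p = 0.30, edgeR) did not pass. It was 1.32 without BMDC KO 2, a fit that leaves BMDC KO 1 alone in its group. Mean Lyz2 levels were 258 ± 22.3 CPM in BMDM KO, 153 ± 70.0 in BMDC KO, 59286 ± 6105 in BMDM control and 18606 ± 1630 in BMDC control (SD, n = 2 each), so that both KO groups ranked below both control groups, and the neighbouring KO groups did not pass against each other. Mean Lyz1 levels were 6.94 ± 1.06 CPM in BMDM KO, 0.394 ± 0.132 in BMDC KO, 57.3 ± 2.33 in BMDM control and 1.26 ± 0.485 in BMDC control (SD, n = 2 each). Here both BMDM groups ranked above both BMDC groups, and the neighbouring BMDC groups did not pass against each other. BMDM KO against BMDC control was not tested.

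The ratio of the genes within a library does not depend on library scaling, and it varied 603-fold over the 8 libraries. Lyz1 counts were 3.18% and 2.26% of Lyz2 counts in BMDM KO, against 0.0927% and 0.101% in BMDM control. In BMDC they were 0.292% and 0.241% in KO, against 0.00527% and 0.00813% in control. The 4 groups did not overlap. The ratios in BMDC control rest on 17 and 33 Lyz1 counts, which could all be reads from Lyz2. The ratio was 27.7-fold higher in KO than in control in BMDM and 40.5-fold higher in BMDC, and 33.5-fold higher over both (log2 difference 5.07). An exact two-sided permutation test of genotype within cell type gave p = 0.056, the smallest that its 36 arrangements allow, so the design cannot reach 0.05. Between cell types the ratio was 14.8-fold higher in BMDM control than in BMDC control and 10.1-fold higher in BMDM KO than in BMDC KO. Permuting cell type within genotype, a test added after the data were seen, also gave the smallest exact two-sided p of 0.056.

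**Figure D4:**
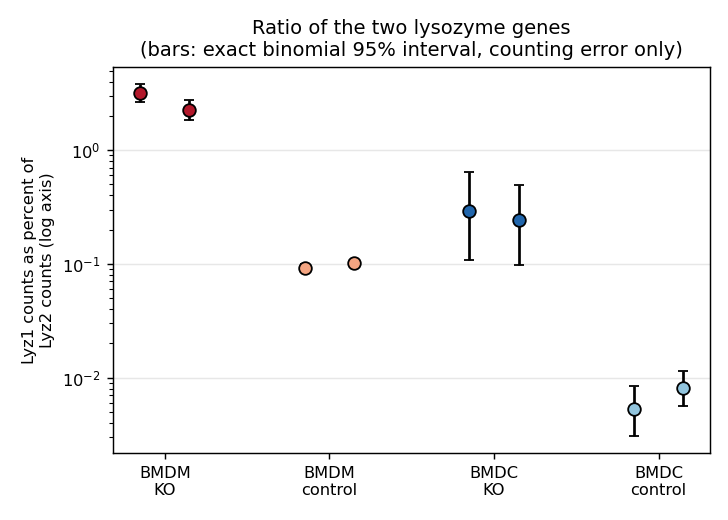
Lyz1 counts as a percent of Lyz2 counts in each library, on a log axis, with KO left of control in BMDM and then in BMDC; bars are exact binomial 95% intervals, which cover counting error only. The BMDM KO libraries lie at 3.18% and 2.26%, above BMDM control at 0.0927% and 0.101%, and the BMDC KO libraries at 0.292% and 0.241%, above BMDC control at 0.00527% and 0.00813%.

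Lyz2 and Lyz1 together took 0.0257% and 0.0279% of counts in BMDM KO, against 5.78% and 5.35% in BMDM control, and 0.0121% and 0.0165% in BMDC KO, against 1.91% and 2.09% in BMDC control. With plain library totals, the median log2 fold change over the tested BMDM genes was 0.10. It was 0.02 when the counts of both lysozyme genes were left out of the totals, and −0.0068 with TMM scaling. In BMDC the median was −0.09 with plain totals, −0.12 without the lysozyme counts and 0.02 with TMM scaling.

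By profile over the 8 libraries, the genes nearest to Lyz2 were Trpv2, the predicted gene Gm15446 and Lrmda, a gene of melanocyte differentiation, with root mean square differences of 2.44, 2.54 and 2.92 log2 units between centred profiles. The median over the 10775 genes with a mean of at least 1 CPM was 3.80. Lrmda was at 2.34 and 0.877 CPM in BMDM KO, against 8.35 and 6.42 CPM in BMDM control, and at 2.11 and 3.41 CPM in BMDC KO, against 12.6 and 11.2 CPM in BMDC control. Lrmda and Gm15446 fell in BMDM (adjusted p = 0.0022 and 2.5e-04 by edgeR). Lrmda lost this call with totals that leave out the lysozymes and use no TMM factors (adjusted p = 0.057, edgeR). Both genes lost it in the joint fit (adjusted p = 1, edgeR). These 3 genes, like Lyz2, were lower in each KO library than in each control library of either cell type. They were picked for profiles near that of Lyz2 in these same libraries, so the shared pattern follows from the choice.

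The genes nearest to Lyz1 were others. They were the maltase-glucoamylase gene Mgam, the PDZ and LIM domain gene Pdlim4 and the transposase-derived gene Pgbd5, at 0.92, 1.04 and 1.04 log2 units, against a median of 2.35. These genes were high in BMDM and low in BMDC. They were picked for profiles near that of Lyz1 in these same libraries, so that pattern follows from the choice. Mgam was at 7.39 and 6.95 CPM in BMDM KO, against 10.4 and 11.5 CPM in BMDM control, and at 0.251 and 0 CPM in BMDC KO, against 0.0541 and 0.682 CPM in BMDC control. None of them passed between KO and control in BMDM by edgeR (Mgam, log2 −0.61, adjusted p = 1). In BMDC only Pdlim4 was tested, and it did not pass (log2 0.17, SE 0.67, adjusted p = 0.98, edgeR).

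Of the 10 genes of the lysozyme family listed for this work, 3 were in the tables: Lyz2, Lyz1 and the lysozyme-like gene Lyzl4. Lyzl4 had 16 and 9 counts in BMDM KO, against 6 and 3 in BMDM control, below the low-count filter. It had 26 and 50 counts in BMDC KO, against 10 and 32 in BMDC control, with groups that overlap (log2 1.17, SE 0.85, adjusted p = 0.97 by edgeR).

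Genes that sense or handle peptidoglycan, the substrate of lysozyme, did not pass in either cell type. By edgeR 0.109% of all BMDM genes and 0% of all BMDC genes passed, so 0 calls do not set a list apart. In BMDM 16 of 21 were tested and 0 passed, with a median log2 fold change of −0.02, against −0.0068 over all genes. The smallest p in the list was that of the peptide transporter gene Slc15a2, at 2.51 and 3.10 CPM in BMDM KO, against 1.22 and 1.01 CPM in BMDM control (log2 1.33, SE 0.45, adjusted p = 1 by edgeR). Of antibacterial effectors 13 of 24 were tested in BMDM and 0 passed (median 0.10), among them the phagocyte oxidase subunit gene Cybb, at 2093 and 1850 CPM in KO, against 1631 and 1672 CPM in control. Of 15 tested transcription factors that act on lysozyme or other myeloid genes 0 passed (median −0.05), and Cebpe, a factor of granulocyte maturation, was at 0.239 and 0.344 CPM in KO, against 0.812 and 0.944 CPM in control. Of 22 abundant lysosomal and secreted proteins 0 passed (median 0.03), with the lysosomal membrane gene Lamp2 at 734 and 630 CPM in KO, against 556 and 598 CPM in control. At an unadjusted p under 0.05 stood Slc15a2 and Cebpe, against 2.82% of all BMDM genes, and DESeq2 passed 0 members of these lists, against 0.0816% of all genes.

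In BMDC 0 members of these lists passed by edgeR or DESeq2 or had an unadjusted p under 0.05 by edgeR. Of all BMDC genes 0% passed by edgeR, 0.0528% passed by DESeq2 and 1.13% had an unadjusted p under 0.05. The members of these lists with the smallest p were highest in BMDC KO 2. Slc15a3, a lysosomal transporter of peptides and muramyl dipeptide, was at 405 and 1424 CPM in BMDC KO, against 516 and 406 CPM in BMDC control. Wfdc17, a macrophage whey acidic protein gene, was at 559 and 1260 CPM in KO, against 461 and 399 CPM in control. Cebpe was at 9.71 and 35.2 CPM in KO, against 7.20 and 8.51 CPM in control, and the cystatin C gene Cst3 at 911 and 3083 CPM in KO, against 841 and 773 CPM in control. Lyz2 was likewise higher in KO 2 than in KO 1, at 205 and 107 CPM. The list medians were 0.28 for 17 peptidoglycan genes, 0.49 for 23 effectors, −0.31 for 16 factors and 0.49 for 22 lysosomal and secreted proteins, against 0.02 over all genes.

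Between the control cultures, most antibacterial effectors did not pass. By edgeR 0 of 21 tested effectors were higher in BMDM than in BMDC and 4 were lower (Chil3, Lcn2, Ltf and Slpi), while 5.08% of all genes were lower. The list's median was −2.54, against −0.02 over all genes. The effector list shares Camp, Elane, Ltf, Mpo, Ngp, S100a8 and S100a9 with the list of neutrophil markers, so the 2 lists are not separate. Lcn2, which binds bacterial siderophores, was at 16.3 and 6.48 CPM in BMDM control, against 1146 and 478 CPM in BMDC control (log2 −6.16, SE 0.69, adjusted p = 0.0026, edgeR). Of 17 peptidoglycan genes 4 were higher (Nod1, Slc46a1, Slc46a3 and Tlr1) and 3 were lower (Hk2, Nlrp3 and Nod2), with a median of 0.20. Of all genes tested, 4.67% were higher and 9.75% passed in either direction. Tlr1, a receptor subunit for bacterial lipoproteins, was at 263 and 200 CPM in BMDM control, against 18.1 and 23.8 CPM in BMDC control (log2 3.46, SE 0.42, adjusted p = 0.0036, edgeR). Of 16 transcription factors Cebpd was higher and Cebpe, Nfe2 and Runx1 were lower (median −0.73). Of 22 lysosomal and secreted proteins Apoe and Gusb were higher (median 0.38), a share of calls near the 9.75% of all genes. Of these 17 calls, those of Lcn2 and Tlr1 passed under all 14 alternatives. Lcn2 also passed under all 14 in BMDM KO over BMDC KO, with 9.23 and 15.4 CPM in BMDM KO, against 1204 and 1729 CPM in BMDC KO. The 8 neutrophil markers listed in both tables, of 10, summed to 113 and 93.3 CPM in BMDM control, against 202 and 315 CPM in BMDC control. Gene by gene the difference was larger than in these sums. The median log2 fold change of the 8 markers was −5.53, from −11.9 for S100a9 to −0.76 for Csf3r. Of them only Ltf passed by edgeR, and S100a9, Elane and Ltf were at 0 CPM in BMDM control. The part of these markers in the differences between the control cultures was not tested.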

How the data were processed

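Gene-level RNA-seq was analysed in 8 libraries, 2 each of BMDM KO, BMDM control, BMDC KO and BMDC control. Per the labels' protocols, stranded TruSeq libraries were sequenced on a NovaSeq, trimmed with cutadapt, aligned to GRCm38 and counted per gene with HTSeq. GRCm39 is also named, beside GRCm38, in the submitters' processing notes. The sources used here do not give the aligner, tool versions or strand setting. The deposited values are raw counts per gene, 14311 genes for BMDM and 14755 for BMDC, with 13689 in both. The authors also deposited FPKM, which equal counts per listed gene length and library total, and comparison columns with the mean signal of scaled counts, the KO to control ratio, that ratio on the log2 scale, and p-values before and after adjustment, per the file headers.

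KO was set against control in BMDM and in BMDC by edgeR 4.0.16 (R 4.3.3; quasi-likelihood, TMM, filterByExpr at a minimum count of 10, threshold 0.05), and across cell types in a joint fit of 8 libraries over genes in both tables. The SE is the fold change divided by the root of the F statistic. Intervals have a confidence level of 95%. The fits were tested on simulated data. The simulated spread was below that of the BMDC fit (common biological coefficient of variation 0.406) and of the joint fit (0.306). Changes were planted only in genes of higher count. That check therefore does not cover the spread of those fits or low counts. The ratio of the genes was tested by exact permutation. Members and lists were chosen with earlier results of these data known. Named genes are the members, Trpv2, the 3 nearest profiles to each (log2 of CPM plus 0.5), other listed lysozymes, and list members past the threshold or else those with the smallest p; not each is reported. Alternatives were DESeq2 1.42.0 and its size factors, totals without the lysozymes, limma 3.58.1 (voom, and log2 FPKM plus 1 or 0.1), no low-count filter, the joint fit for the within-type results, a fit with a replicate block, and fits without each library in turn. The fits on totals without the lysozymes used no TMM factors, so they differ from the main fits in both respects. With 2 libraries a group, p-values rest on a spread estimated partly across genes. Replicate numbers are not stated to pair samples. Sequences came from RefSeq (GRCm38.p6) and GENCODE M21 (GRCm38).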

Additional observations from a re-analysis of the deposited data

How the results depend on the processing

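Lyz2 in BMDM passed under all 14 alternatives (log2 −7.95 to −7.72) and Lyz1 between cell types in control (5.17 to 5.96) and in KO (3.83 to 4.50). Lyz1 in BMDM passed in 13 of 14, failing in the joint fit (−3.04). Lyz2 in BMDC passed with DESeq2 (−6.92), without a low-count filter (−6.95), with the replicate block (−7.00) and in the joint fit (−6.93), and was at −7.47 to −6.55 when each library was left out. It did not pass with DESeq2 size factors (adjusted p = 0.67), totals without the lysozymes (0.086), limma-voom (0.14), limma on log2 FPKM (0.072 and 0.12) or without BMDC KO 2 (0.46); the cause was not tested. Lyz2 in control BMDM over BMDC did not pass with limma-voom (1.67) or the replicate block (1.69), and ran from 1.57 to 1.78 without each library. Leaving out each library gave −1.31 to −0.35 for the difference of Lyz2 effects and 0.37 to 1.32 for Lyz2 in KO BMDM over BMDC. The KO minus control difference in the log2 ratio of Lyz1 to Lyz2 is 5.07 with or without the replicate block, which changes only the permutations. The exact permutation test within blocks gave p = 0.12, the smallest possible.

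The count of BMDM genes past the threshold was 12, and 6 with totals without the lysozymes, 2 in the joint fit and 11 to 34 without each library (34 without BMDM KO 2, 18 without BMDM control 2). In BMDC it was 0, and 6 with DESeq2, 1 without a filter, 2 with the replicate block, 1 in the joint fit and 0 to 3215 without each library, the last without BMDC KO 1. Between effects it was 0, and 0 to 3733. Between controls it was 1138, 2212 with DESeq2 and 218 to 4877. Between KO groups it was 936, 1691 with DESeq2 and 130 to 3866. Same-numbered BMDM libraries deviated in opposite directions (correlation −0.28), and a crossed pairing, added after the data were seen, passed 29 genes; in BMDC the correlation was −0.0074. Totals without the lysozymes, which also use no TMM factors, moved the median BMDC gene by −0.15 from its value with TMM. Leaving the lysozyme counts out of plain totals moved it by −0.028.

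Among genes not past the threshold, Pdlim4 in BMDC changed sign with totals without the lysozymes (−0.086), limma-voom (−0.056) and limma on log2(FPKM + 1) (−0.053) or log2(FPKM + 0.1) (−0.12), and without each library it ran from −0.74 to 0.72. Leaving out a library also changed the sign of Plac8 (−1.44 to 6.24) and Slc15a3 (−0.19 to 1.61) in BMDC, and Nos2 (−0.11 to 0.82) and Asah1 (−0.012 to 0.59) in BMDM. Depth limits Lyz1 in BMDC, at 6 to 33 counts a library.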
